A study of Mus musculus with 6 samples.

Results

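The comparison set LLC1 tumours from ovariectomized hosts that received vehicle against all other tumours of the series, to find genes whose level in both vehicle libraries lay outside the range of the 4 other libraries. LLC1 is the Lewis lung carcinoma cell line, a mouse tumour line implanted here under the skin. Every host carried a beta-hCG transgene, which makes the beta chain of the gonadotropin hCG, and came from crosses of CB57BL/6 females (as the labels spell the strain) with transgenic FVB males. The vehicle side held 2 libraries from ovariectomized transgenic hosts supplemented with vehicle for 28 days. The other side held 4 libraries, 2 from transgenic hosts for which the labels name no ovariectomy and no supplementation, and 2 from ovariectomized transgenic hosts supplemented with progesterone for 28 days. All tumours were isolated 30 days after implantation. The labels give no age or sex, do not name the vehicle, and do not say that libraries 1 and 2 of a group came from separate animals. Hormone levels were not part of the files, so the 2 sides are called vehicle tumours and the 4 others. Of 19288 genes in the table, 13632 passed the filter on low counts. Both vehicle libraries lay above all 4 others for 936 of them and below all 4 for 999, together 1935 genes. For a gene whose 6 libraries are in random order, each of these 2 outcomes has a probability of 0.0667.

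Progesterone, made mainly by the ovary and the placenta, acts through a nuclear receptor, Pgr, that binds DNA as a dimer, and through membrane proteins of the Paqr and Pgrmc families. Luteinizing hormone and hCG share the receptor Lhcgr, through which they stimulate ovarian steroid production. Solid tumours grown under the skin hold cancer cells together with host macrophages, fibroblasts, vessels and lymphocytes, and bulk RNA measures all of them at once, so fewer cells of a type and less RNA per cell cannot be told apart.

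The shallowest library held 19526775 counts and the deepest 30083925. A count of 0 allows a level of up to 3 counts, which is 0.0997 to 0.154 CPM (counts scaled to a common library total) across the libraries. Such limits cover counting error only. The first principal component of all genes set transgenic 2 apart and the second set progesterone 2 apart, and neither separated the vehicle libraries from the rest. Krt8 and Krt18, keratins of simple epithelia, were between 125 and 393 CPM in every library, whereas the lung epithelial markers Sftpc, Scgb1a1 and Epcam did not pass the filter. Summed CPM of 8 red blood cell markers was 2873 in transgenic 1 and 2545 in vehicle 1, and between 83.5 and 317 in the other 4 libraries. Levels below are CPM scaled by the trimmed mean of M values (TMM).

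No gene was called between the vehicle tumours and the 4 others at an adjusted p under 0.05 by edgeR's quasi-likelihood test (0% of genes tested), and the smallest adjusted p was 0.224, for Mmp12. At an unadjusted p under 0.05, 756 genes differed, where 681.6 would be expected if no gene differed. Of these, 370 were higher (2.71%) and 386 were lower (2.83%) in the vehicle tumours. DESeq2 called 42 genes (0.308%), 22 higher and 20 lower, all of which lay outside the 4 others, and limma-voom called 0. For a single gene, an exact permutation test of 2 libraries against 4 cannot give a p below 0.0667. The genes described below are therefore described by their levels, and none is called as changed by the main test.

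The 936 genes above all 4 others made up 6.87% of the genes tested, and the 999 genes below all 4 made up 7.33%. Both shares were close to the probability of 0.0667 that random order of the libraries gives for each side. Another 331 genes had 1 vehicle library above and 1 below all 4 others. Random order gives this outcome the same probability of 0.0667, so it was rarer than random order gives. The split into genes above and below depended on scaling. It was 717 above and 1259 below with upper quartile scaling, and 530 above and 1568 below with library totals alone. The TMM factors were 0.969 and 0.966 for the vehicle libraries and 0.9999 to 1.054 for the others. Most gaps were narrow. The median ratio between the nearest vehicle library and the nearest other library was 1.06 for genes above and 1.09 for genes below. Among genes with at least 5 CPM on the higher side, 16 lay above and 10 below by at least 1.5-fold, and 4 lay above and 3 below by at least 2-fold. The nearest other library was transgenic 1 for 34.8% of the genes above and 33.3% of the genes below, and transgenic 2 for 13.4% and 11.2%. Genes above all 4 had a median exonic length of 5250.5 bases and genes below all 4 one of 3932 bases, against 4434 bases for all genes tested. Their median levels over all libraries also differed, at 69.1 CPM above, 23.9 CPM below and 30.4 CPM for all genes tested.

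Read by gene list, the genes below all 4 held most of the DNA replication and mitosis genes, and the genes above all 4 held many hypoxia response and glycolysis genes. The plot of members by list shows these shares beside the background.

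**Figure D1:**
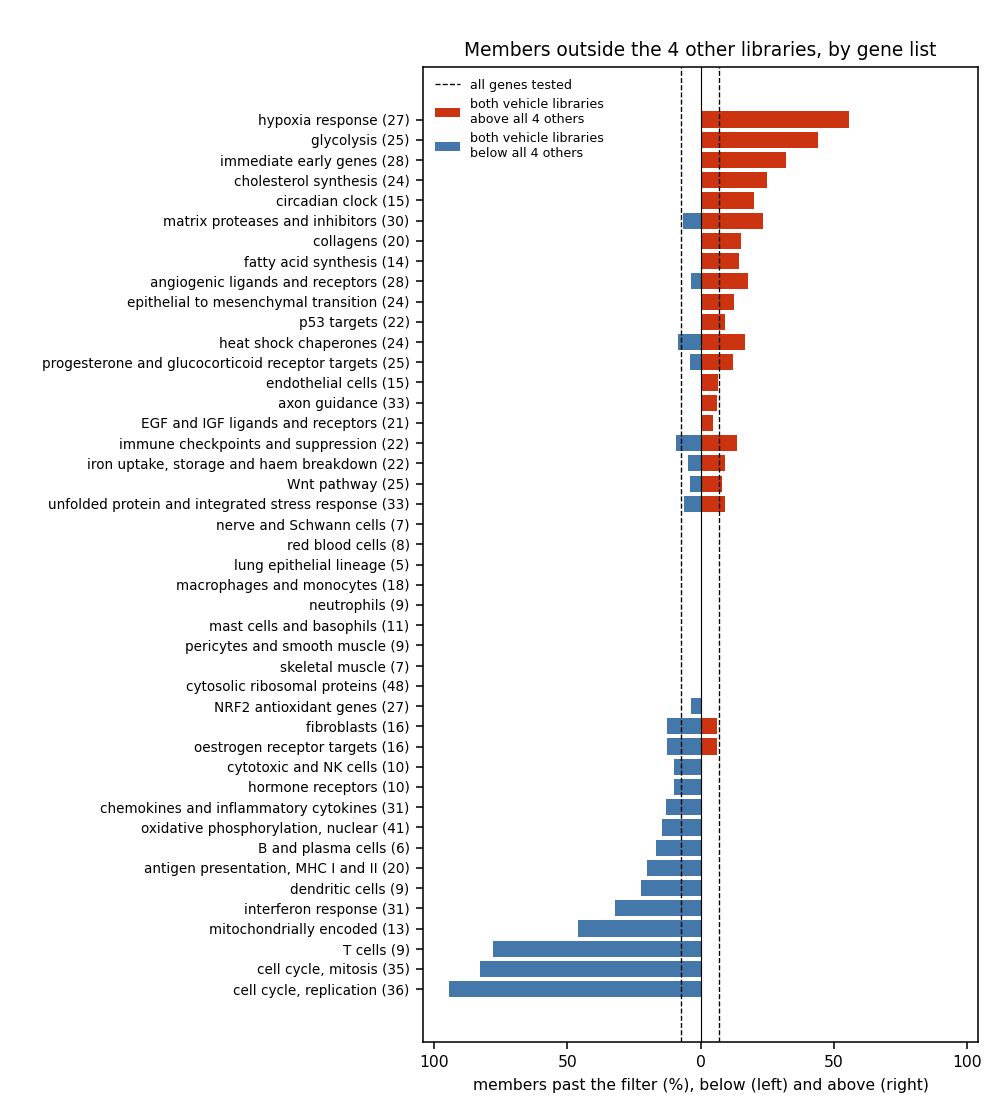
Share of each gene list's members past the filter (number in brackets) with both vehicle libraries above all 4 others (red, right) or below all 4 others (blue, left), in percent; dashed lines mark the shares among all 13632 genes tested, 6.87% above and 7.33% below. The replication, mitosis and T cell lists extend furthest to the left, and the hypoxia and glycolysis lists furthest to the right. Several T cell members passed the filter only through the 4 others.

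Genes of DNA replication were lower in the vehicle tumours. Of 36 members tested, 34 lay below all 4 others and 0 above, against the background of 7.33% below. At an unadjusted p under 0.05, 27 members were lower. Members of a list can rise and fall together across libraries, so such counts are not independent observations, here and for the lists below. If all members followed a single ordering of the libraries, random order would give this side with a probability of 0.0667. The background per gene is therefore no test of a list. The list's median log2 fold change was -0.53, against -0.02 over all genes tested. The mean of the list on the log2(CPM + 0.5) scale was 5.43 and 5.57 in the vehicle libraries, 6.04 and 6.24 in the transgenic libraries, and 5.87 and 5.93 in the progesterone libraries. Dnajc9, a co-chaperone that handles histones, was at 27.6 and 27.9 CPM in the vehicle libraries, 46.3 and 53.4 CPM in the transgenic libraries, and 50.03 and 50.15 CPM in the progesterone libraries. Both vehicle values were nearly equal and lay below the other 4, which were close to each other. Dnajc9 had the smallest p of the named genes below all 4, so this spacing follows from its choice. Fen1, Tk1 and Ccne2, given next, were also chosen by small p among genes below all 4. The log2 fold change of Dnajc9 was -0.85 ± 0.14 (SE), with an adjusted p of 0.751 by edgeR and 0.000302 by DESeq2. Fen1, the flap endonuclease that trims Okazaki fragments, was at 44.1 and 50.03 CPM under vehicle, 81.6 and 79.6 CPM in transgenic tumours, and 67.2 and 71.1 CPM under progesterone. Tk1, which salvages thymidine, was at 65.7 and 69.3 CPM under vehicle and between 92.4 and 103 CPM in the 4 others. Ccne2, the cyclin that drives entry into S phase, was at 15.0 and 17.8 CPM under vehicle and between 26.0 and 31.7 CPM in the 4 others. Subunits of the MCM helicase, which unwinds DNA at replication forks, showed the same order. Mcm4 was at 90.6 and 93.7 CPM under vehicle, 124 and 162 CPM in transgenic tumours, and 128 and 139 CPM under progesterone. The 2 members that overlapped the others were E2f1 and Slbp.

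Genes of mitosis followed the same order. Of 35 members tested, 29 lay below all 4 others and 0 above, and 26 had an unadjusted p under 0.05, with a median log2 fold change of -0.67. Ccnb1, the cyclin that activates Cdk1 at the start of mitosis, was at 55.9 and 59.2 CPM under vehicle, 98.1 and 98.5 CPM in transgenic tumours, and 79.0 and 96.3 CPM under progesterone. Plk1, a kinase of spindle assembly, was at 30.6 and 36.4 CPM under vehicle, 49.1 and 61.3 CPM in transgenic tumours, and 50.9 and 54.0 CPM under progesterone. Cdc20, the activator of the anaphase-promoting complex, was at 47.9 and 62.9 CPM under vehicle and between 83.4 and 108 CPM in the 4 others. These genes were picked among members below all 4 others, so this order follows from the choice. Mki67, the proliferation marker, was at 195 and 234 CPM under vehicle, 303 and 515 CPM in transgenic tumours, and 286 and 367 CPM under progesterone. The list mean was 5.49 and 5.66 under vehicle, 6.52 in transgenic 2, and 5.94 to 6.14 in the 3 remaining libraries. Without transgenic 2 and progesterone 2, 29 members lay below the rest, against 17.4% of all genes tested, with a median log2 fold change of -0.43. Leaving out libraries of the other side can hardly lower such a count, so it is no check of it. The median of the mitosis list was -0.82 against transgenic tumours and -0.48 against progesterone tumours, and that of the replication list was -0.65 and -0.37. These 2 comparisons share the vehicle libraries.

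Promoters of these genes are shown because the listed genes moved together and the known elements of cell cycle promoters can be read in them. Sequences are from RefSeq (GRCm38.p6), 250 bases before to 50 bases after the annotated start, on the gene's strand from 5′ to 3′, and capitals mark matches, on either strand, to the NF-Y box CCAAT, the cell cycle homology region (CHR) TTTGAA, which is bound by the MuvB complexes, and the E2F site TTCCCGC. The promoters lie at chr14:20388861-20389160 (minus strand) for Dnajc9, chr13:100786437-100786736 (minus strand) for Ccnb1, chr19:10204344-10204643 (minus strand) for Fen1 and chr7:122159185-122159484 (plus strand) for Plk1. Plk1 was added, after values were seen, as a mitosis gene with both elements. For Fen1 the GENCODE annotation places the gene's start at chr19:10204169, so the printed window lies wholly upstream of that start.
Dnajc9: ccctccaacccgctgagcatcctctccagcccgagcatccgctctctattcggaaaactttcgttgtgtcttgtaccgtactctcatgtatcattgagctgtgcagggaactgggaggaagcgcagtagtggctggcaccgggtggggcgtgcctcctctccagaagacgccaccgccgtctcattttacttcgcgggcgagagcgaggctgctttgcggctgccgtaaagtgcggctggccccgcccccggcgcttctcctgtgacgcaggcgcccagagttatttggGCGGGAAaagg
Ccnb1: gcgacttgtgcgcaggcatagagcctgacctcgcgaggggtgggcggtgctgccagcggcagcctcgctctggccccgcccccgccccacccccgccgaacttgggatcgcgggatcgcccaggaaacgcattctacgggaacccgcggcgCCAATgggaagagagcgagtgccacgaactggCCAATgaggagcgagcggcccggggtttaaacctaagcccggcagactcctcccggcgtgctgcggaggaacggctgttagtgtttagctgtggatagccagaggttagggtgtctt
Fen1: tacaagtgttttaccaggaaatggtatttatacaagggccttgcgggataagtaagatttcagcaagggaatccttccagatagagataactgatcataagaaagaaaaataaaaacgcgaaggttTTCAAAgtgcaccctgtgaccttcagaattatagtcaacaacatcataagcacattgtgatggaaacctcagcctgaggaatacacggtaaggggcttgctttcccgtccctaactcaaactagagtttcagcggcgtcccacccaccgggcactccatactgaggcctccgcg
Plk1: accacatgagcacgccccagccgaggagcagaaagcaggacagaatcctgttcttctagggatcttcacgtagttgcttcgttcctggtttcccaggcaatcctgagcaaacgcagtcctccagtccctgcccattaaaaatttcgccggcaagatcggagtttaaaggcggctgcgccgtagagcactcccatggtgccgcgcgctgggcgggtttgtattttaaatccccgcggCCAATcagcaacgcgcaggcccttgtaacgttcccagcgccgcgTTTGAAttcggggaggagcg
The Dnajc9 promoter held 1 E2F match, that of Ccnb1 held 2 NF-Y boxes, that of Fen1 held 1 CHR, and that of Plk1 held 1 NF-Y box and 1 CHR. The Tk1 promoter in the table held 0 matches and is not printed. The motifs were searched separately, so 1 stretch can count for more than 1 of them. CCAAT was in 82.8% of 29 mitosis promoters and 62.1% of 29 replication promoters. It was in 38.7% of 10521 promoters of genes tested and 37.4% of all 32851 promoters in the table. The box was not particular to lowered lists. Among lists with members above all 4, it was in 88.2% of 17 cholesterol synthesis, 52.6% of 19 hypoxia response and 41.7% of 24 glycolysis promoters. TTTGAA was in 65.5% of mitosis promoters and 13.8% of replication promoters, against 11.97% of genes tested, and in 23.9% of promoters of genes below all 4. TTCCCGC was in 48.3% of replication promoters, 0% of mitosis promoters and 8.24% of genes tested. CHR and E2F were searched after the data had been seen, and a match describes the letters only.

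**Figure D2:**
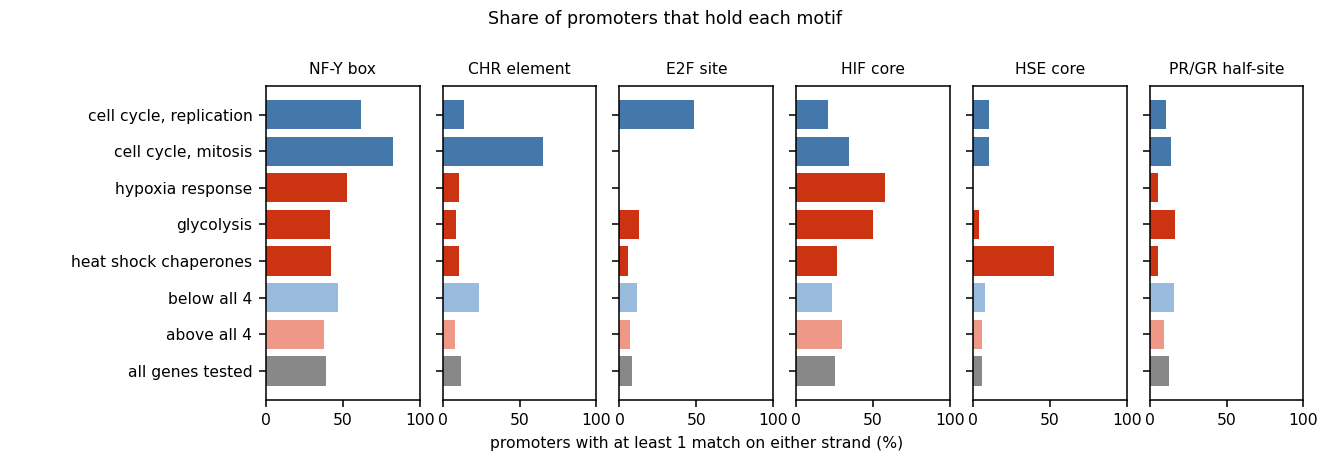
Share of promoters (300 bases, percent on the x axis from 0 to 100) with at least 1 match to each motif on either strand, for gene lists lower in the vehicle tumours (dark blue) or holding genes above all 4 others (dark red), for all genes below or above all 4 (light blue, light red) and for all genes tested (grey). The CHR element is in 65.5% of mitosis promoters and the HIF core in 57.9% of hypoxia response promoters, against 11.97% and 25.1% of genes tested.

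Genes of the hypoxia response were higher in the vehicle tumours. Hypoxia-inducible factors (HIFs) accumulate when oxygen is low and raise genes of glucose uptake, glycolysis and collagen processing. Of 27 members tested, 15 lay above all 4 others and 0 below, against the background of 6.87% above, with a median log2 fold change of 0.62. At an unadjusted p under 0.05, 15 members were higher and 1, Lox, was lower. Ero1l, an oxidase of disulfide bond formation in the endoplasmic reticulum, was at 643 and 450 CPM under vehicle, 278 and 184 CPM in transgenic tumours, and 209 and 245 CPM under progesterone. Its log2 fold change was 1.26 ± 0.21 (SE), with an adjusted p of 0.751 by edgeR and 9.04e-05 by DESeq2. Adm, adrenomedullin, a vasodilator peptide, was at 286 and 193 CPM under vehicle, 126 and 63.9 CPM in transgenic tumours, and 98.6 and 96.6 CPM under progesterone. Egln3, a prolyl hydroxylase that marks HIF for degradation, was at 582 and 465 CPM under vehicle and between 204 and 348 CPM in the 4 others. Bnip3, which promotes mitophagy, was at 311 and 260 CPM under vehicle and between 103 and 176 CPM in the 4 others. P4ha1, a collagen prolyl hydroxylase, was at 315 and 355 CPM under vehicle and between 188 and 235 CPM in the 4 others. The vehicle libraries were the highest of the 6 in all 5 genes, which were chosen as outside members or after their values were seen. Vegfa and Hif1a overlapped the others. Vegfa was at 186 and 172 CPM under vehicle, 209 and 99.5 CPM in transgenic tumours, and 66.1 and 112 CPM under progesterone. Bhlhe40, a repressor of clock genes, was at 223 and 152 CPM under vehicle and between 74.4 and 121 CPM in the 4 others. The list mean was 6.43 and 6.32 under vehicle, 6.13 and 5.72 in transgenic tumours, and 5.56 and 6.05 under progesterone. With library totals alone the count above all 4 was 12.

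The promoters of P4ha1 and Ankrd37, the first outside hypoxia genes by p whose promoter in the table holds the HIF core ACGTG, were read from chr10:59323046-59323345 (plus strand) and chr8:45999801-46000100 (minus strand) of GRCm38.p6, and capitals mark the core on either strand.
P4ha1: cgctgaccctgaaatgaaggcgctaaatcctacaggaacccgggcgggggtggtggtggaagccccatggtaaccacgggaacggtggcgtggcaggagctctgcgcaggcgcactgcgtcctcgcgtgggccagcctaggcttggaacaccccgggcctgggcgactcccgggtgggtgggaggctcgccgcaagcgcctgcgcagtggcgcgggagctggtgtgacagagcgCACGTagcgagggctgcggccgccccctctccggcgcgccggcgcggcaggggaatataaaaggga
Ankrd37: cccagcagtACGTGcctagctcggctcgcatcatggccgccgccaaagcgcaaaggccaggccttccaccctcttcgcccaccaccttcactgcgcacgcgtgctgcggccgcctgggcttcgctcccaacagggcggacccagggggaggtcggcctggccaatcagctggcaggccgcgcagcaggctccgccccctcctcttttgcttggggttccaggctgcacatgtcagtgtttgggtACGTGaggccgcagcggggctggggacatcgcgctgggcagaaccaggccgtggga
The core was in 57.9% of 19 hypoxia promoters and 50% of 24 glycolysis promoters, against 25.1% of genes tested and 19.6% of all promoters in the table. Ankrd37, an ankyrin repeat protein, was at 29.9 and 26.4 CPM under vehicle and between 13.6 and 18.1 CPM in the 4 others. The steroid receptor half-site TGTTCT was in 9.43% of promoters above all 4 and 15.8% of those below, against 12.3% of genes tested.

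Glycolysis genes were also higher. Of 25 members tested, 11 lay above all 4 others and 0 below, with a median log2 fold change of 0.36. Hk2, hexokinase 2, which phosphorylates glucose, was at 408 and 289 CPM under vehicle, 225 and 180 CPM in transgenic tumours, and 197 and 189 CPM under progesterone. Gpi1, glucose-6-phosphate isomerase, was at 1438 and 1122 CPM under vehicle and between 645 and 823 CPM in the 4 others. Slc2a1, the glucose transporter GLUT1, was at 919 and 796 CPM under vehicle, 402 and 256 CPM in transgenic tumours, and 630 and 368 CPM under progesterone. Pdk1, a kinase that inhibits pyruvate dehydrogenase, was at 222 and 162 CPM under vehicle and between 100 and 149 CPM in the 4 others. Ldha, lactate dehydrogenase, was at 1608 and 1716 CPM under vehicle and between 1222 and 1672 CPM in the 4 others, so the groups overlapped. The list mean was 7.72 and 7.603 under vehicle and between 7.04 and 7.36 in the 4 others.

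Transcripts of the mitochondrial genome were lower. All 13 members tested had a negative log2 fold change, and 6 lay below all 4 others. mt-Nd2, a subunit of respiratory complex I, was at 518 and 571 CPM under vehicle, 863 and 1049.8 CPM in transgenic tumours, and 785 and 934 CPM under progesterone. mt-Cytb, of complex III, was at 2149 and 2171 CPM under vehicle and between 2908 and 3179.7 CPM in the 4 others. mt-Co1, of complex IV, overlapped, at 6629 and 6397 CPM under vehicle and between 6306 and 7246 CPM in the 4 others. Counts on the mitochondrial genome took 1.18% and 1.14% of the vehicle libraries and 1.40% to 1.65% of the others. The 41 nuclear genes of oxidative phosphorylation had a median log2 fold change of -0.07. Of them, 6 lay below all 4 and 0 above, against the background of 7.33% below and 6.87% above. That count rested on the libraries used. Without vehicle 2 it was 22 below, with a median of -0.22, and without transgenic 2 and progesterone 2 it was 16 below. Cytosolic ribosomal proteins held 0 of 48 members outside on either side with all libraries, but 26 below without transgenic 2 and progesterone 2, and 9 above without vehicle 1. With fewer libraries more of all genes tested lie outside, 14.6% above and 17.4% below without transgenic 2 and progesterone 2, 15.3% and 14.6% without vehicle 1, and 17.5% and 19.1% without vehicle 2.

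**Figure D3:**
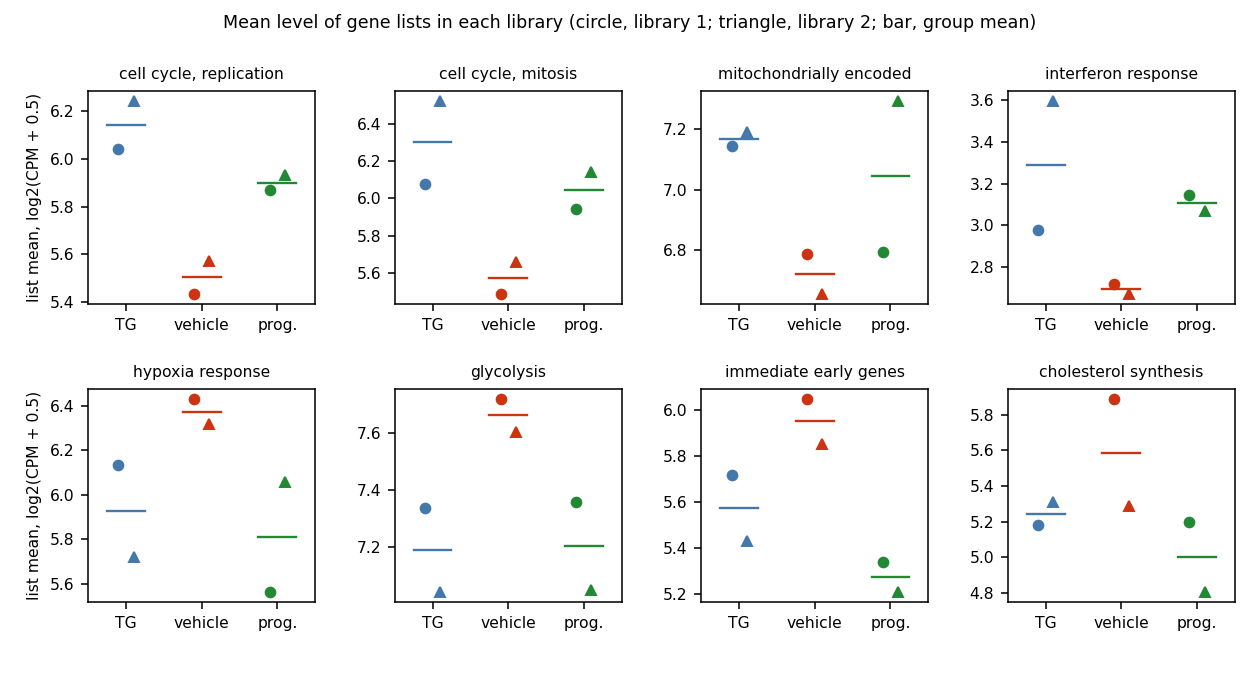
Mean log2(CPM + 0.5) of 8 gene lists in each library (y axis, its range differs between panels) for transgenic (TG), vehicle and progesterone (prog.) tumours; circles are library 1, triangles library 2, and bars the mean of a group. The vehicle libraries are lowest for replication (5.43 and 5.57) and highest for hypoxia response (6.43 and 6.32) and glycolysis (7.72 and 7.603).

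Mmp12, macrophage elastase, had the smallest p of all genes tested. It was at 568 and 458 CPM under vehicle, 144 and 99.7 CPM in transgenic tumours, and 154 and 97.6 CPM under progesterone, with a log2 fold change of 2.05 ± 0.22 (SE). The lowest vehicle value was 2.97 times the highest of the others. The gene spans chr9:7344381-7369499 on the plus strand of GRCm38. Mmp1b, an interstitial collagenase, overlaps its end on the minus strand (chr9:7368239-7388047), and was at 23.8 and 6.15 CPM under vehicle and between 1.32 and 3.04 CPM in the 4 others. Whether counting used the strand is not given in the sources used here, so reads from the overlap cannot be assigned to 1 of the pair. Mmp10, stromelysin 2, was at 36.6 and 97.5 CPM under vehicle and between 4.51 and 21.6 CPM in the 4 others. Mmp3, stromelysin 1, was at 2089 and 2363 CPM under vehicle, 1137 and 213 CPM in transgenic tumours, and 370 and 197 CPM under progesterone. Of 30 matrix proteases and inhibitors tested, 7 lay above all 4 and 2 below, against the background of 6.87% above and 7.33% below. The median log2 fold change had the sign opposite to the larger count, at -0.14. Fn1, fibronectin, was at 8713 and 5847 CPM under vehicle and between 1590.5 and 4133 CPM in the 4 others. The 18 macrophage markers tested had 0 members outside on either side with all libraries and a median log2 fold change of -0.42. Without transgenic 1, 14 of them lay below the rest, with a median of -0.63, against 13.0% of all genes tested. Their summed level was 1953 and 2391 CPM under vehicle and 1536 to 3456 CPM in the 4 others. The part of macrophage content in the Mmp12 level was not tested.

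Stress genes differed by member. Hspa1a and Hspa1b, near-identical inducible Hsp70 genes that can share reads, lay above all 4. Hspa1a was at 37.6 and 32.0 CPM under vehicle and between 9.82 and 15.0 CPM in the 4 others. Hspa1b was at 69.5 and 78.8 CPM under vehicle and between 20.2 and 35.4 CPM in the 4 others. Of 24 heat shock chaperones tested, 4 lay above and 2 below, against the background of 6.87% above and 7.33% below. The median log2 fold change of the chaperones was -0.05. Immediate early genes, which respond within minutes to stimuli, had 9 of 28 members above all 4 and 0 below, with a median log2 fold change of 0.35. Fos was at 50.7 and 38.9 CPM under vehicle, 23.2 and 11.4 CPM in transgenic tumours, and 18.5 and 20.7 CPM under progesterone. Atf3 was at 54.0 and 35.9 CPM under vehicle and between 14.8 and 28.1 CPM in the 4 others. Cholesterol synthesis genes had 6 of 24 members above all 4, with a median log2 fold change of 0.55 that was 0.17 without vehicle 1. The list mean was 5.89 in vehicle 1 and 5.29 in vehicle 2, and 4.80 to 5.31 in the others. Vehicle 1 was also the vehicle library with many red blood cell counts, and the part of blood content in these values was not tested.

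**Figure D4:**
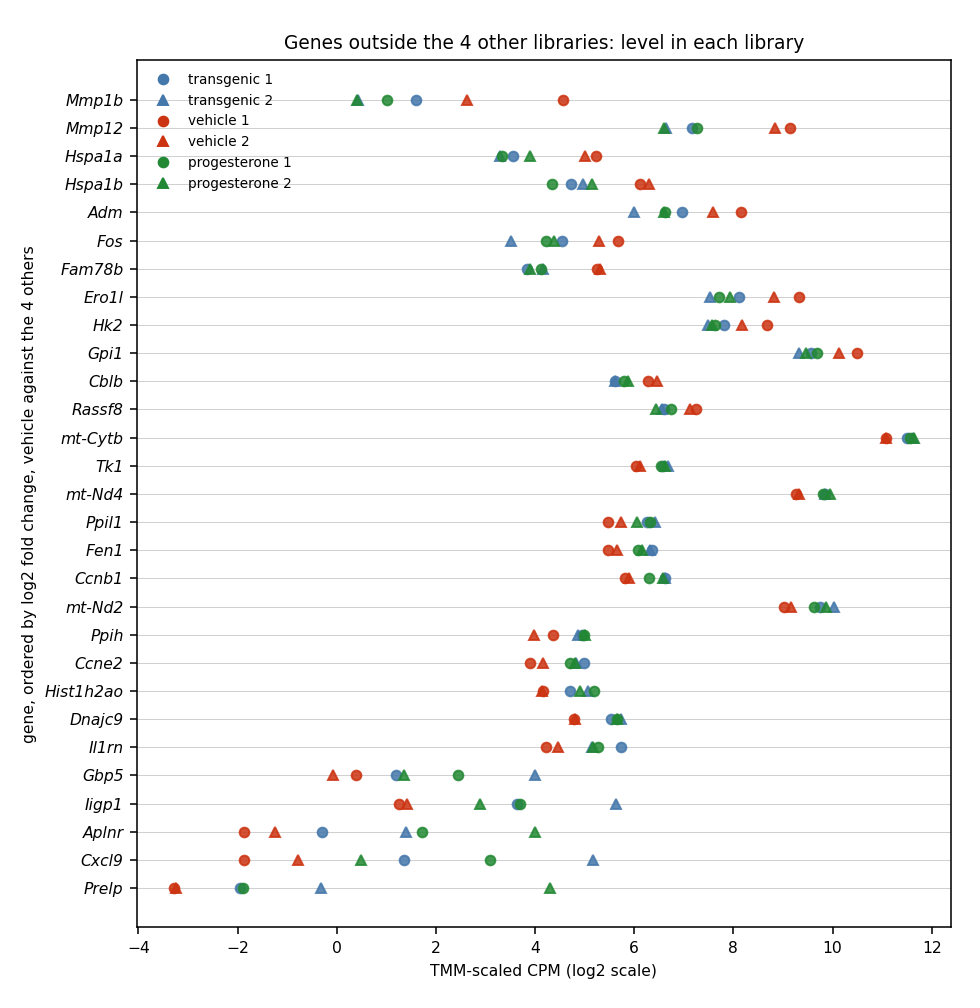
TMM-scaled CPM on a log2 axis of the 29 genes chosen by smallest p or widest gap, in each of the 6 libraries; blue, transgenic; red, vehicle; green, progesterone; circles, library 1; triangles, library 2. Genes are ordered by log2 fold change, and both red points lie outside the other 4 in each row, as the choice of genes required.

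Interferon-induced genes were lower, with levels that varied among the 4 others. Of 31 members tested, 10 lay below all 4 and 0 above, with a median log2 fold change of -0.33. The median was -0.58 without vehicle 1 and -0.13 without transgenic 2 and progesterone 2. Without vehicle 1, 3 members lay above and 15 below, against 15.3% and 14.6% of all genes tested. Without vehicle 2 it was also 3 above and 15 below, against 17.5% and 19.1%. Iigp1, an interferon-induced GTPase, was at 2.40 and 2.65 CPM under vehicle, 12.4 and 49.8 CPM in transgenic tumours, and 13.0 and 7.45 CPM under progesterone. Cxcl9, a chemokine that attracts T cells, was at 0.274 and 0.583 CPM under vehicle, 2.56 and 35.7 CPM in transgenic tumours, and 8.46 and 1.41 CPM under progesterone. Both were highest in transgenic 2. Of 14 T cell markers listed, 9 passed the filter, and 7 of these lay below all 4. The summed level of the 9 was 9.85 and 11.9 CPM under vehicle, 11.8 and 30.8 CPM in transgenic tumours, and 14.8 and 46.4 CPM under progesterone. Cd4 was at 0.172 and 0 CPM under vehicle and between 0.370 and 1.70 CPM in the 4 others, and Cd8a was at 0.172 and 0 CPM and between 0.259 and 3.58 CPM. In vehicle 2 neither was detected, and levels this low rest on few counts. Cd4, Cd8a, Cd3d and Trac passed the filter on low counts only through the 4 others. Markers low in those as well were not tested, so the filter favours the count of 7 below. The part of T cell content in the interferon genes was not tested. Siglech, of plasmacytoid dendritic cells, had 0 counts in both vehicle libraries and between 2 and 40 counts in the others, so it too passed the filter only through the others. Prelp, a matrix proteoglycan, had 3 and 2 counts under vehicle, and its high value of 19.8 CPM came from progesterone 2 alone.

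Other genes near the top of the ordering were Fam78b, at 38.0 and 39.7 CPM under vehicle and between 14.4 and 17.95 CPM in the 4 others, and Il1rn, the interleukin 1 receptor antagonist, at 18.6 and 22.0 CPM under vehicle and between 35.7 and 52.8 CPM. Vwf, von Willebrand factor of endothelial cells, was at 51.5 and 56.7 CPM under vehicle and between 12.9 and 29.2 CPM in the 4 others. The other 14 endothelial markers lay outside on neither side with all libraries, while 6 lay below without progesterone 1, against 11.5% of all genes tested, and the list's summed level was 349 and 338 CPM under vehicle and 164 to 415 CPM in the others.

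Of the other genes with the smallest p, Rassf8 was at 152 and 140.2 CPM under vehicle and between 87.1 and 107 CPM in the 4 others, and Cblb, a ubiquitin ligase that restrains receptor signalling, was at 77.1 and 88.3 CPM and between 48.6 and 58.6 CPM. Ppih and Ppil1, peptidyl-prolyl isomerases of the spliceosome, lay below all 4. Ppih was at 20.4 and 15.8 CPM under vehicle and between 29.2 and 32.1 CPM in the 4 others. Ppil1 was at 44.5 and 52.8 CPM under vehicle and between 66.9 and 86.1 CPM in the 4 others. Hist1h2ao, a replication-dependent histone gene with near-identical copies that can share reads, was at 17.9 and 17.5 CPM under vehicle and between 26.0 and 36.2 CPM in the 4 others. mt-Nd4 was at 613 and 637 CPM under vehicle and between 893 and 991 CPM in the 4 others. A pair of wide gaps among genes below all 4 rested on low vehicle levels. Aplnr, the apelin receptor, was at 0.274 and 0.424 CPM under vehicle and between 0.815 and 16.01 CPM in the 4 others. Gbp5, an interferon-induced GTPase, was at 1.30 and 0.954 CPM under vehicle and between 2.30 and 15.9 CPM in the 4 others.

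Antigen presentation genes had 4 of 20 members below all 4 and 0 above, with a median log2 fold change of -0.72, which was -0.40 without vehicle 1 and -0.46 without transgenic 2. Ciita, the master activator of MHC class II genes, was at 0.686 and 0.795 CPM under vehicle, 1.26 and 8.56 CPM in transgenic tumours, and 4.06 and 2.90 CPM under progesterone. H2-Aa, an MHC class II chain, was at 5.42 and 5.99 CPM under vehicle, 6.26 and 55.0 CPM in transgenic tumours, and 24.6 and 15.3 CPM under progesterone, so transgenic 1 was close to the vehicle libraries. Chemokines and inflammatory cytokines had 4 of 31 members below all 4 and 0 above, against the background of 7.33% below and 6.87% above. Without vehicle 1, 1 lay above and 12 below, against 15.3% and 14.6% of all genes tested. Without vehicle 2, 7 lay above and 6 below, against 17.5% and 19.1%. Among 22 immune checkpoint and suppression genes, 3 lay above and 2 below, a few members on each side against the background of 6.87% and 7.33%. Cd274, the checkpoint ligand PD-L1, was at 15.8 and 13.1 CPM under vehicle, 20.5 and 27.7 CPM in transgenic tumours, and 30.7 and 21.7 CPM under progesterone. Cd47, which restrains phagocytosis, was at 293 and 362 CPM under vehicle and between 254 and 269 CPM in the 4 others. Dendritic cell markers had 2 of 9 members below all 4, B and plasma cell markers 1 of 6, and cytotoxic and NK cell markers 1 of 10. Each had 0 above, against the background of 6.87% above and 7.33% below. The outside dendritic, B and plasma cell members, Siglech, Cd209a and Jchain, passed the filter only through the 4 others, which favours a place below. The cytotoxic and NK cell list had 6 below without vehicle 2, against 19.1% of all genes tested. Its median log2 fold change of -1.05 became -1.73 without vehicle 2 and -0.25 without vehicle 1. Neutrophil and mast cell lists had 0 members outside with all libraries. Of 9 neutrophil markers, 4 lay above without transgenic 1, against 11.1% of all genes tested. Without transgenic 2 and progesterone 2, 4 lay below, against 17.4%.

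Matrix and vessel genes were mixed. Collagens had 3 of 20 members above all 4 and 0 below, against the background of 6.87% and 7.33%. Without vehicle 1, 9 lay above and 2 below, against 15.3% and 14.6% of all genes tested. Without transgenic 2 and progesterone 2, 8 lay above, against 14.6%. Col23a1, a transmembrane collagen, was at 44.6 and 18.9 CPM under vehicle, 2.0003 and 3.37 CPM in transgenic tumours, and 10.3 and 8.32 CPM under progesterone. Angiogenic ligands and receptors had 5 of 28 members above and 1 below, against the same background. Angpt2, a ligand of the receptor Tie2, was at 39.7 and 51.7 CPM under vehicle, 29.6 and 27.2 CPM in transgenic tumours, and 12.7 and 20.4 CPM under progesterone. Pgf, placental growth factor, was at 59.3 and 43.1 CPM under vehicle, 38.7 and 20.7 CPM in transgenic tumours, and 9.89 and 17.2 CPM under progesterone. In both genes the progesterone libraries were the lowest of the 6. Lrp5, a Wnt co-receptor, was at 189 and 177 CPM under vehicle, 105 and 107 CPM in transgenic tumours, and 133 and 129.6 CPM under progesterone. Gadd45a, a p53 target of DNA damage responses, was at 141 and 102 CPM under vehicle and between 40.5 and 77.9 CPM in the 4 others. Fibroblast markers had 1 of 16 members above and 2 below, a few members on each side against the background of 6.87% and 7.33%. Their summed level was 7095 and 11838 CPM under vehicle and 2092 to 11074 CPM in the 4 others. Unfolded protein response genes had 3 of 33 members above and 2 below, near the background on both sides.

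The 2 groups on the other side were examined apart. Against transgenic tumours alone the smallest adjusted p was 0.587 and against progesterone tumours alone 0.668, and edgeR called 0 genes in each. Between progesterone and transgenic tumours edgeR also called 0 genes, and 718 had an unadjusted p under 0.05. For Mmp12 the log2 fold change was 2.07 against transgenic and 2.03 against progesterone tumours, and for Dnajc9 it was -0.84 and -0.85. Scara5, a ferritin receptor, had unlike values in the 2 comparisons. It was at 16.2 and 17.4 CPM under vehicle and 11.98 and 15.14 CPM under progesterone, but at 1.44 and 0.421 CPM in transgenic tumours. It lay above all 4 others, with a log2 fold change of 4.15 against transgenic and 0.31 against progesterone tumours.

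**Figure D5:**
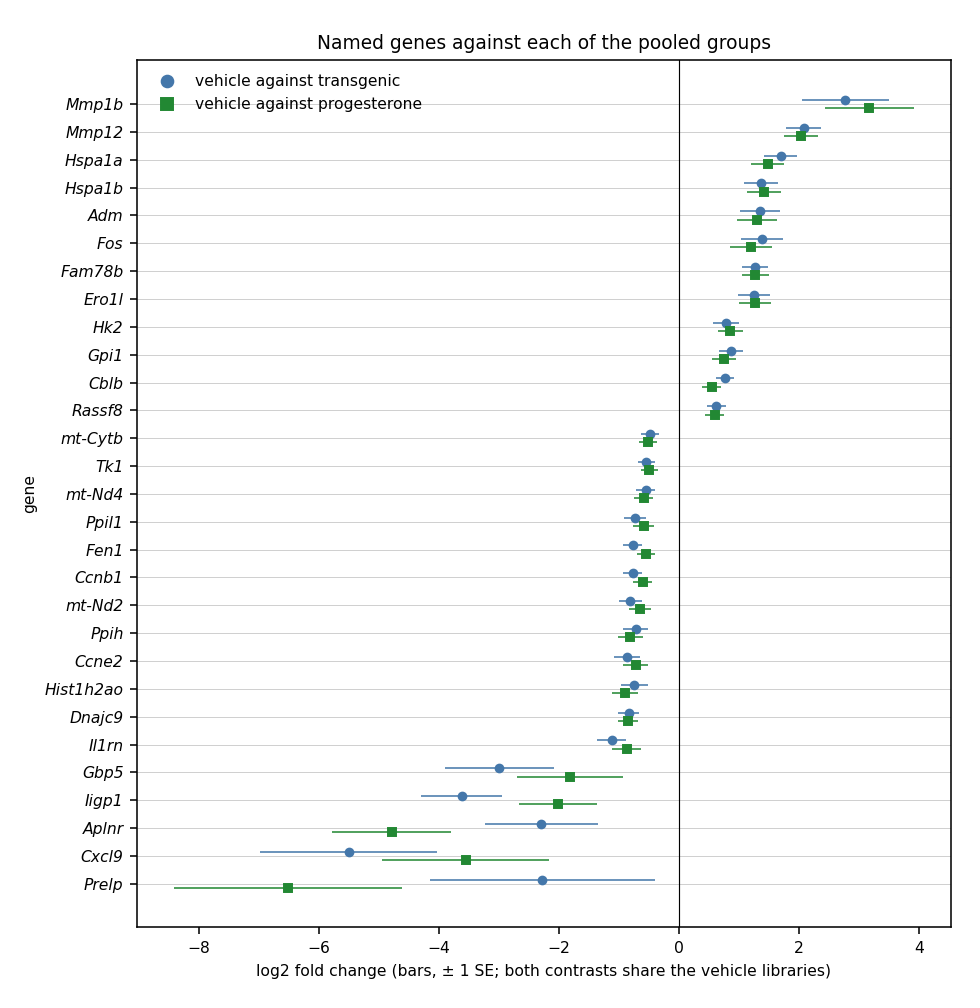
Log2 fold change (x axis, bars ± 1 SE) of the same 29 genes in the vehicle tumours against transgenic tumours (blue circles) and against progesterone tumours (green squares); both contrasts share the vehicle libraries. Mmp12 is at 2.07 and 2.03 and Dnajc9 at -0.84 and -0.85.

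Of the hormone receptors, Pgr had between 0 and 3 counts and Lhcgr between 0 and 1 count in every library, no more than the 3 counts that a count of 0 allows. Of 10 receptors past the filter, 0 lay above all 4 and 1 below, near the background of 6.87% and 7.33%. Esr2, oestrogen receptor beta, was at 1.201 and 1.219 CPM under vehicle and between 1.67 and 2.32 CPM in the 4 others. Esr1, oestrogen receptor alpha, was at 5.66 and 23.6 CPM under vehicle and between 3.16 and 18.7 CPM in the 4 others, so its groups overlapped. Nr3c1, the glucocorticoid receptor, was at 170 and 146 CPM under vehicle and between 119 and 157 CPM in the 4 others. Of 25 progesterone and glucocorticoid receptor targets tested, 3 lay above all 4 and 1 below, a few members on each side against the background of 6.87% and 7.33%, with a median log2 fold change of 0.01. With library totals alone 0 lay above. Errfi1, an inhibitor of EGF receptor signalling, was at 618 and 565 CPM under vehicle and between 254 and 562 CPM in the 4 others.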

How the data were processed

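Messenger RNA libraries of 6 tumours were analysed. The deposited table holds raw read counts per gene, not normalized by the authors. HISAT2, HTSeq and DESeq, and the build GRCm38.p6, are named in the submitters' processing notes. Their versions and the strand setting are not known from the labels or headers. The kit is directional per the labels' protocols. Of 19288 gene IDs, 19284 matched the GENCODE annotation (GRCm38), which gave gene coordinates (1-based). In R 4.3.3, edgeR 4.0.16 kept 13632 genes (filterByExpr), scaled libraries by TMM and fitted 2 means, vehicle against the 4 others, with glmQLFit and glmQLFTest and 4 residual degrees of freedom. Calls used a Benjamini-Hochberg adjusted p under 0.05. Standard errors came from the F statistic. The p-values set differences against the spread between libraries, which may be technical. With 2 means, differences between transgenic and progesterone tumours count as part of that spread. DESeq2 1.42.0, limma-voom (limma 3.58.1), other scalings and filters, and leaving out libraries were alternatives. The script was tested on simulated data.

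A gene lay outside when both vehicle libraries were above, or both below, all 4 others in TMM-scaled CPM. This is a description with no test. The comparison and the 47 gene lists (30 of pathways, 17 of cell type markers) were chosen with earlier results of these data known. Named genes were the 12 per direction with the smallest p among outside genes with at least 5 CPM on the higher side, the 5 per direction with the widest gap, up to 4 outside members per list, and hormone receptors past the filter. A few genes under this rule are not reported here and were not replaced. Other list members given with values were chosen after their values were seen. Promoters matched for 10521 of the genes tested.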

Additional observations from a re-analysis of the deposited data

Results flagged for a closer look

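Among the 4 libraries outside the vehicle group, a list mean or a named gene was singled out when its highest or lowest library lay further from the nearest other one, as a share of the whole range, than Dixon's 95% critical value, on the log2(CPM + 0.5) scale. This picked 5 of 46 lists and 12 of 119 named genes, and chance alone picks about 1 in 20. Progesterone 2 was the library set apart for the means of the matrix protease list (share of the range 0.888) and the axon guidance list (0.837), and for Prelp (0.836), Ppp1r15a (0.853), Hfe (0.854) and Sfrp2 (0.882). Progesterone 1 was set apart for the endothelial list (0.898), Ccnb1 (0.897), Ndufv2 (0.941) and Col7a1 (0.951). Transgenic 1 was set apart for the mammary epithelium list (0.842), the red blood cell list (0.834), Ccl4 (0.886) and Pgrmc2 (0.949). Transgenic 2 was set apart for Ddit4 (0.831), Gbp7 (0.851) and Dcn (0.909).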

How the results depend on the processing

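EdgeR called 0 genes in the main comparison, DESeq2 called 42, and limma-voom, a model of 3 group means and the other scalings called 0. With the replicate number as a block, 1 gene was called, Mmp12, and without the filter on low counts 1, again Mmp12. Whether the numbers pair the libraries is not known. The deviations of same-numbered libraries correlated at -0.13, -0.17 and 0.08 between groups, which cannot settle it with 2 libraries per group. Leaving out 1 library, or transgenic 2 with progesterone 2 (chosen after seeing the data), called 0 genes, and the count at an unadjusted p under 0.05 ran from 240 without vehicle 1 to 1108 without transgenic 1. Genes above all others numbered 530 and genes below 1568 with library totals alone. With the nearest libraries at least 1.5-fold apart they numbered 31 and 61, and at least 2-fold apart 8 and 26. Leaving libraries out gave 1364 to 2508 above and 1365 to 2734 below, as fewer libraries make the condition easier to meet. Leave-out ranges of median log2 fold changes were -0.61 to -0.43 for replication, -0.82 to -0.43 for mitosis, 0.17 to 0.80 for cholesterol synthesis, -0.065 to 0.21 for matrix proteases, -0.025 to 0.19 for the circadian clock, -1.95 to -1.36 for T cells, -1.11 to -0.65 for dendritic cells and -0.38 to 0.14 for nerve and Schwann cells. Leave-out ranges of members outside were 12 to 18 for glycolysis, 9 to 19 for immediate early genes, 6 to 21 for cholesterol synthesis (3 with library totals alone), 3 to 6 for the clock, 6 to 10 for mitochondrially encoded genes, 4 to 11 for antigen presentation and 2 to 5 for dendritic cells. Receptors given here whose log2 fold change turned sign ran from -0.043 to 0.11 for Pgrmc2 (-0.032 with library totals alone), -0.10 to 0.37 for Paqr7, -0.69 to 0.018 for Paqr8, -0.88 to 1.18 for Esr1 and -1.15 to 0.37 for Nr3c2. The cause of these shifts was not tested.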
